A study of Mus musculus with 10 samples.

Results

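A set of 9 genes of the B lineage were followed in sorted T cells: *Ebf1*, *Pax5*, *Spib*, *Cd79a*, *Cd79b*, *Ms4a1*, *Cd22*, *Blnk* and *Vpreb3*. They were picked by name, and every probe set of theirs on the array was kept, which gave 9 of 18193 genes and 16 of 45037 probe sets. The question was which of these B cell genes appear in T cells cultured with B lymphoma cells and which stay within the background of the array.

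The arrays, 10 Affymetrix mouse genome chips, held 2 of each of 5 groups. Naïve CD4+ and naïve CD8+ T cells came from the spleens of wild-type C57BL/6 mice, were sorted as CD62L+ CD44- cells and were not cultured. CD4+ TEM (effector-memory) and CD8+ TEM cells were grown from such naïve cells with IL-2 and were sorted at day 25. They were grown on γ-irradiated B lymphoma cells that carry LMP1 and LMP2A. A further group of the same day, grown from naïve CD4+ cells, has CM in its titles and is named memory in the labels. It is called CD4+ memory here. The paper uses central memory for CD62L+ CD44+ cells of this culture but describes no array of them. The lymphoma cells descend from mice in which Cγ1-Cre, active in germinal center B cells, switches on the Epstein-Barr virus proteins LMP1 and LMP2A. The paper describes the mice that gave the naïve T cells as wild type. The groups within a subset differ in culture, stimulation and age of the cells together. The labels also carry a Foxo1 status that differs between the arrays of 2 groups and a description as germinal center B cells, neither of which could be matched to T cells, and groups were taken from the titles. Nothing says that replicate arrays came from separate mice or cultures, so all p-values measure the spread between these arrays, which may be technical.

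B lymphocytes are made in the bone marrow under a small set of transcription factors. EBF1 opens the B lineage program and PAX5 holds cells to it, and the genes they act on include those of the B cell receptor signaling chains CD79A and CD79B, the surface proteins CD20 (*Ms4a1*) and CD22, and the adaptor BLNK. Mature T cells signal through CD3 chains instead and are not known for expressing this set, although some of its members, *Cd79b* and *Spib* among them, are not strictly confined to B cells.

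Because the values are log2 RMA values without detection calls, a background range was taken from 27 genes of tissues such as heart, liver and pancreas. Their 50 probe sets had a median of 3.67, and the 95th percentile of their values over all arrays, 6.14, was used as the upper end of background. A probe set was read as above background in a group where both arrays exceeded it. By this reading 0 of the 9 genes were above background in naïve CD4+ cells, 3 in CD4+ TEM cells (*Cd79b*, *Ebf1* and *Vpreb3*), 4 in CD4+ memory cells (the same genes and *Blnk*), 1 in naïve CD8+ cells (*Cd79b*) and 3 in CD8+ TEM cells (*Cd79b*, *Ebf1* and *Vpreb3*). *Pax5*, *Cd22*, *Cd79a*, *Ms4a1* and *Spib* were above it on both arrays of no group. The background genes are not all silent here: *Tnnt2*, cardiac troponin T, named after its values were seen, rose by 3.87 (SE 0.30, adjusted p = 8.56e-05) in CD4+ TEM cells, and with only this gene left out the upper end was 5.82, which added *Cd79a* in CD4+ TEM cells and *Ms4a1* and *Cd79a* in CD4+ memory cells. Other background genes also lay above 6.14 on both arrays of a group: *Gh* in CD4+ memory cells (6.65 and 7.08, a rise of 2.90, adjusted p = 0.0151), *Apoa2* in CD4+ TEM and CD8+ TEM cells (7.61 and 6.96 in the latter, a rise of 1.29, adjusted p = 0.0116), and *Prm1* in naïve CD4+ and both CD4+ cultures, all named after their values were seen.

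**Figure D1:**
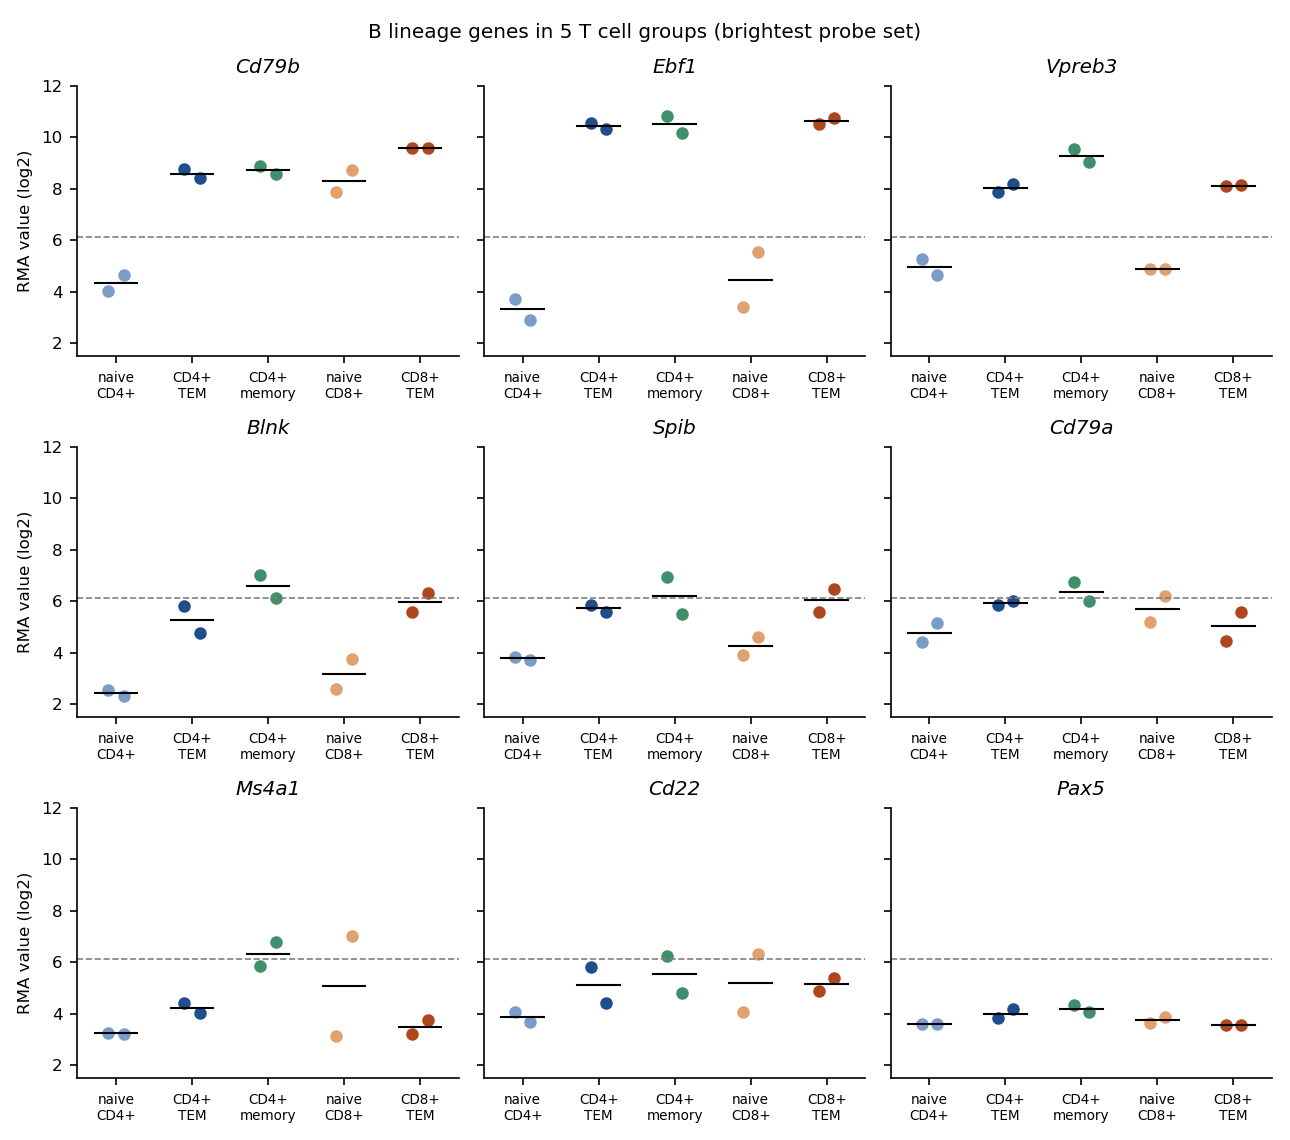
Log2 RMA value (vertical axis) of the brightest probe set of each of the 9 B lineage genes, 1 panel per gene, in the 5 T cell groups (horizontal axis). Points are arrays, bars are means of 2 arrays and the dashed line is the upper end of background at 6.14. Cd79b, Ebf1 and Vpreb3 lie above the line on all 6 cultured arrays, Pax5 lies below it on all 10.

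The T cell labels were checked first against defining markers. *Cd3e* read 12.72 to 13.29 on all 10 arrays. *Cd4* read 11.50 to 11.89 on the 6 arrays labelled CD4+ and 4.10 to 6.89 on the others, and *Cd8b1* read 10.98 to 11.54 on the 4 arrays labelled CD8+ and 4.94 to 5.63 on the others. The naïve CD8+ pair stood apart in its B cell and myeloid genes: of 24 B cell receptor and surface genes, a list that excludes the 9, 8 were at least 1 log2 unit higher on array 2 than on array 1 and 0 were lower by that much, as were 5 of 9 MHC class II genes and 8 of 17 myeloid and dendritic cell genes but 0 of 14 T cell genes, against 2.17% of all probe sets that were at least 1 unit higher. Without that array the same count of 8 of the 16 probe sets was called higher in CD8+ TEM than in naïve CD8+ cells, and values without it are given beside each gene.

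Promoters of the genes that moved and of some that did not are shown first, since EBF1 is itself a member of the set. The RefSeq table (GRCm38.p6) held 8 windows of 7 of the 9 genes, and *Cd79b* and *Ms4a1* had none. Each line gives the 150 bases before the annotated start, 5′ to 3′ on the gene's strand. Capitals mark a match to the octamer of OCT factors, ATGCAAAT on either strand, or to the EBF motif, TCCC and GGGA with any 2 bases between them, which reads the same on both strands, and the motifs do not overlap. *Vpreb3*, *Blnk* and *Spib* rose in all 3 cultured groups, and *Cd22* and *Cd79a* did not pass the test in any.
Vpreb3 (chr10:75948150-75948299, plus strand): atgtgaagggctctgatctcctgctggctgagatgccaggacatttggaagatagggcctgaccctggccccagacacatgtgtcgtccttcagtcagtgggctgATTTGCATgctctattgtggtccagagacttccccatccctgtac
Blnk (chr19:40994222-40994371, minus strand): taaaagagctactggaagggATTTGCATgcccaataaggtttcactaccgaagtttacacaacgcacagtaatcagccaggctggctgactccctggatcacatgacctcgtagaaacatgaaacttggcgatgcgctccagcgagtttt
Spib (chr7:44532072-44532221, minus strand): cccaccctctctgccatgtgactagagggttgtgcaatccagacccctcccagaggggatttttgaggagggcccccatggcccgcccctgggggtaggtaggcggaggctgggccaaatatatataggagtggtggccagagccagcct
Cd22 (chr7:30879029-30879178, minus strand): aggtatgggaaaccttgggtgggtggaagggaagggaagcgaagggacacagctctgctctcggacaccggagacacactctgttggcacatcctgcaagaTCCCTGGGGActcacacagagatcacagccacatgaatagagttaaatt
Cd79a (chr7:24897347-24897496, plus strand): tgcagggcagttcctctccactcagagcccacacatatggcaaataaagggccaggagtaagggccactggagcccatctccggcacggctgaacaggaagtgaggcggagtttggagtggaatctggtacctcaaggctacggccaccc
The octamer began 45 bases before the start of *Vpreb3* and 130 bases before that of *Blnk*, in the reverse orientation ATTTGCAT in both. The EBF motif began 49 bases before the start of *Cd22*. The windows searched run from 250 bases before the start to 50 after it, 300 bases in all. Of all 32851 such windows in the table, 1.74% held the octamer and 0.904% the EBF motif. The windows of *Cd79a*, *Ebf1*, *Pax5* and *Spib* held neither string of letters. A match, or the lack of one, is a description of the letters in the window and no measurement of binding. Only these exact strings were searched, so a site spelled otherwise would be missed.

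*Ebf1*, the pioneer factor of the B lineage, was within background in naïve T cells and far above background in all 3 cultured groups. Its probe set 1416301_a_at read 3.71 and 2.93 in naïve CD4+ cells, 10.56 and 10.32 in CD4+ TEM cells, 10.82 and 10.19 in CD4+ memory cells, 3.40 and 5.56 in naïve CD8+ cells, and 10.53 and 10.76 in CD8+ TEM cells. All 6 cultured arrays were higher than all 4 naïve arrays, and the cultured groups overlapped each other. The change from naïve cells was 7.12 on the log2 scale in CD4+ TEM (SE 0.62, adjusted p = 0.000146), 7.19 in CD4+ memory (SE 0.62, adjusted p = 0.000196) and 6.16 in CD8+ TEM cells (SE 0.62, adjusted p = 0.000185), by limma with Benjamini-Hochberg adjustment over all 45037 probe sets, as for every adjusted p here. Without naïve CD8+ array 2 the CD8+ change of this probe set was 7.25. As the mean of its 5 probe sets, *Ebf1* rose by 3.45, 3.28 and 3.93, still past the test.

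The other *Ebf1* probe sets separated into 3 that followed and 1 that did not. Probe set 1448293_at rose by 5.36, 4.65 and 5.57 in CD4+ TEM, CD4+ memory and CD8+ TEM cells, and 1416302_at by 3.23, 3.14 and 4.61, with adjusted p between 3.85e-05 and 0.00123. Probe set 1439789_at read 3.8 to 4.0 on the 4 naïve arrays, 5.72 and 5.74 in CD4+ TEM, 5.83 and 4.73 in CD4+ memory and 7.58 and 7.0 in CD8+ TEM cells, and it rose by 1.76 (adjusted p = 0.00704), 1.31 (adjusted p = 0.0296) and 3.45 (adjusted p = 0.000158). Its rise in CD4+ memory cells did not pass in a fit of only the groups compared (adjusted p = 0.118), nor without CD4+ memory array 1 (0.76, adjusted p = 0.075), naïve CD4+ array 1 (adjusted p = 0.114) or array 2 (adjusted p = 0.127). Probe set 1457441_at stayed between 2.51 and 3.30 on all 10 arrays, and its changes of -0.22, 0.11 and -0.12 did not pass the test. Without naïve CD8+ array 2 the CD8+ rises were 5.73 for 1448293_at, 4.81 for 1416302_at and 3.49 for 1439789_at. The position of these probe sets along the transcript was not analysed here.

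**Figure D2:**
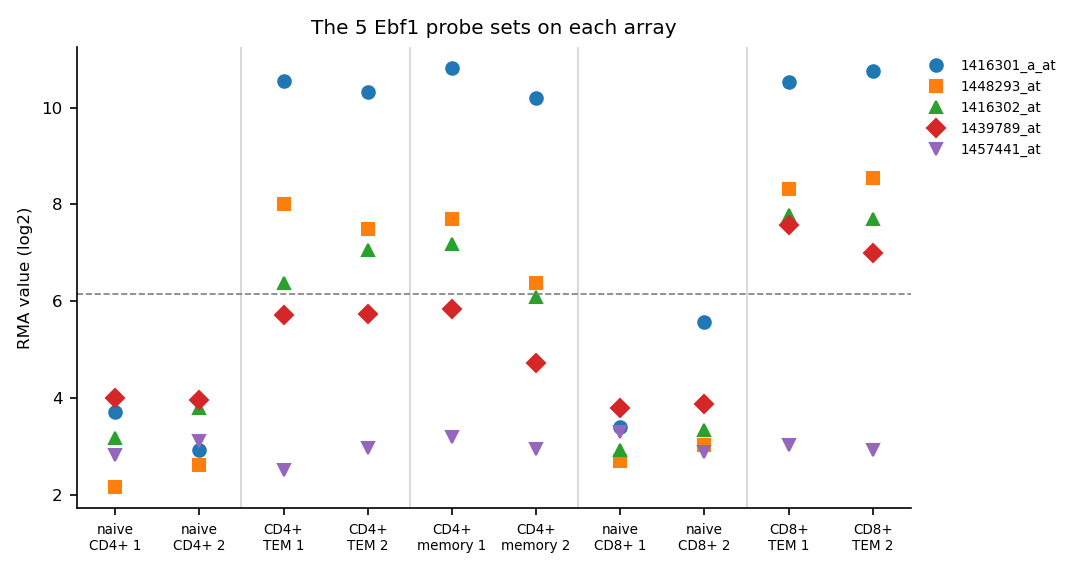
Log2 RMA value (vertical axis) of the 5 Ebf1 probe sets on each of the 10 arrays (horizontal axis), 1 symbol per probe set, with the upper end of background (6.14) dashed. The other 4 symbols are higher on every cultured array than on any naïve array, and 1457441_at stays between 2.51 and 3.30.

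*Pax5*, the factor that commits cells to the B lineage, did not follow *Ebf1*. Probe set 1454401_at read 3.62 on both naïve CD4+ arrays, 3.84 and 4.18 in CD4+ TEM, 4.33 and 4.07 in CD4+ memory, 3.65 and 3.88 in naïve CD8+ and 3.58 on both CD8+ TEM arrays. The CD4+ cultured arrays were above both naïve CD4+ arrays, yet all 10 lay below background. The differences were 0.39 (SE 0.17, adjusted p = 0.164) in CD4+ TEM, 0.58 (SE 0.17, adjusted p = 0.0516) in CD4+ memory and -0.19 (SE 0.17, adjusted p = 0.498) in CD8+ TEM cells, the last -0.07 without naïve CD8+ array 2. The CD4+ memory difference passed in 3 of the alternative settings, with only the brightest probe set of each gene in the test (adjusted p = 0.041) and without CD4+ TEM array 1 or 2 (adjusted p = 0.0499 each). Probe set 1421765_at lay between 2.81 and 3.56 on all arrays with no difference that passed.

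*Spib*, an ETS factor of mature B cells and plasmacytoid dendritic cells, rose less than *Ebf1*. It read 3.86 and 3.72 in naïve CD4+ cells, 5.88 and 5.58 in CD4+ TEM, 6.94 and 5.51 in CD4+ memory, 3.91 and 4.62 in naïve CD8+ and 5.61 and 6.48 in CD8+ TEM cells. Every cultured array was above every naïve array, with 2 of the 6 above the background range. The changes were 1.94 (SE 0.48, adjusted p = 0.0216), 2.43 (SE 0.48, adjusted p = 0.00989) and 1.78 (SE 0.48, adjusted p = 0.0234) in CD4+ TEM, CD4+ memory and CD8+ TEM cells. These calls were less stable than those of *Ebf1*: the CD4+ TEM call was lost when any single array of its 2 groups was left out (adjusted p from 0.0673 to 0.109), the CD4+ memory call without naïve CD4+ array 1 (0.052) or 2 (0.0627), and the CD8+ TEM call without naïve CD8+ array 1 (0.14) or CD8+ TEM array 2 (0.152). Without naïve CD8+ array 2 the CD8+ TEM rise was 2.13 (adjusted p = 0.0356).

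The chains that pair in the B cell receptor complex, CD79A and CD79B, behaved differently. *Cd79b* read 4.05 and 4.64 in naïve CD4+ cells, 8.77 and 8.41 in CD4+ TEM and 8.89 and 8.59 in CD4+ memory cells. In the CD8+ subset it was already at 7.88 and 8.75 before culture and at 9.60 and 9.58 in TEM cells. Naïve CD4+ cells were thus the only group at background, 3.97 below naïve CD8+ cells (SE 0.32, adjusted p = 0.000326), which was the only call among the 16 probe sets in that comparison, where 8.88% of all probe sets were higher and 7.12% lower in naïve CD8+ cells, 16% in all (0 of the 16 were lower, also at an unadjusted p under 0.05). Without naïve CD8+ array 2 the difference was 3.54 (adjusted p = 0.00208).

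*Cd79b* rose by 4.24 (SE 0.32, adjusted p = 6.77e-05) in CD4+ TEM, by 4.40 (SE 0.32, adjusted p = 7.88e-05) in CD4+ memory and by 1.27 (SE 0.32, adjusted p = 0.0158) in CD8+ TEM cells. The CD4+ TEM change exceeded the CD8+ TEM change by 2.97 (SE 0.45, adjusted p = 0.00943), again the only member probe set called, with 4.76% of all probe sets called in that direction, 3.11% in the other and 7.87% in either. The CD8+ rise was lost without naïve CD8+ array 1 (0.84, adjusted p = 0.086), CD8+ TEM array 1 (adjusted p = 0.0761) or CD8+ TEM array 2 (adjusted p = 0.0716), and was 1.71 without naïve CD8+ array 2 (adjusted p = 0.00536), where the difference between the subsets was 2.54 (adjusted p = 0.0162). *Cd79b* was above background on naïve CD8+ array 1, where other B cell genes went both ways. *Ms4a1* was at 3.15 and *Cd22* at 4.07 there, within background, and *Igk* at 6.87 and *Cd72* at 10.24, above it. The source of these signals was not tested, and *Cd72* was named after its values were seen.

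*Cd79a* read 4.41 and 5.17 in naïve CD4+, 5.85 and 6.0 in CD4+ TEM, 6.74 and 6.03 in CD4+ memory, 5.22 and 6.2 in naïve CD8+ and 4.45 and 5.61 in CD8+ TEM cells. The CD4+ cultured arrays were above both naïve CD4+ arrays, while the CD8+ groups overlapped. Its differences of 1.14 (SE 0.48, adjusted p = 0.14), 1.60 (SE 0.48, adjusted p = 0.0531) and -0.68 (SE 0.48, adjusted p = 0.357) did not pass, and the last was -0.19 without naïve CD8+ array 2. The CD4+ memory value lies at the threshold: it was called in 11 of 18 alternative settings (adjusted p from 0.0275 to 0.257 over all of them), and the CD4+ TEM difference was called in 1, with only the compared groups in the fit (adjusted p = 0.0494).

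*Ms4a1*, which encodes CD20, was at 3.26 and 3.23 in naïve CD4+, 4.41 and 4.03 in CD4+ TEM, 5.88 and 6.78 in CD4+ memory, 3.15 and 7.02 in naïve CD8+ and 3.21 and 3.76 in CD8+ TEM cells by probe set 1450912_at. Its highest value was on naïve CD8+ array 2, an uncultured array, and the CD4+ memory arrays came next, above all other groups apart from that array. The differences of 0.98 (SE 1.02, adjusted p = 0.588) in CD4+ TEM, 3.08 (SE 1.02, adjusted p = 0.0741) in CD4+ memory and -1.59 (SE 1.02, adjusted p = 0.305) in CD8+ TEM cells did not pass. The naïve CD8+ pair sets most of the spread that the fit pools over groups: without naïve CD8+ array 1 or without array 2 the CD4+ memory rise of 3.08 was called (adjusted p = 0.0012 in each case), as it was with only the compared groups (adjusted p = 0.0111). The CD8+ TEM difference turned from -3.53 without naïve CD8+ array 1 (adjusted p = 0.00122) to 0.34 without array 2, so its direction rests on those arrays. Probe set 1423226_at was also highest on naïve CD8+ array 2, at 5.40 against 2.94 to 4.12 on the other 9 arrays, but its CD4+ memory pair (4.12 and 3.75) overlapped the CD4+ TEM pair (4.11 and 3.5), with changes of 0.95 and 0.81 that did not pass in the fit reported. Both of these rises were called when naïve CD8+ array 1 or array 2 was left out.

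*Cd22*, an inhibitory lectin of B cells, read 4.06 and 3.69 in naïve CD4+, 5.83 and 4.43 in CD4+ TEM, 6.26 and 4.82 in CD4+ memory, 4.07 and 6.34 in naïve CD8+ and 4.90 and 5.40 in CD8+ TEM cells by probe set 1419768_at. Replicate arrays differed by up to 2.27, and the CD8+ groups overlapped. None of its differences passed: 1.26 (SE 0.79, adjusted p = 0.329), 1.66 (SE 0.79, adjusted p = 0.197) and -0.05 (SE 0.79, adjusted p = 0.976), the last of which was 1.08 without naïve CD8+ array 2. Probe set 1419769_at lay between 2.63 and 3.28 on all arrays.

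*Blnk*, the adaptor that links SYK to phospholipase C in B cells, read 2.58 and 2.34 in naïve CD4+, 5.81 and 4.77 in CD4+ TEM, 7.03 and 6.15 in CD4+ memory, 2.60 and 3.75 in naïve CD8+ and 5.61 and 6.34 in CD8+ TEM cells. Cultured and naïve arrays did not overlap, and the CD4+ memory pair was above background. *Blnk* rose by 2.83 (SE 0.50, adjusted p = 0.00498), 4.13 (SE 0.50, adjusted p = 0.00108) and 2.79 (SE 0.50, adjusted p = 0.00349) in CD4+ TEM, CD4+ memory and CD8+ TEM cells. These calls held in all 18 alternative settings, the CD8+ rise at 3.37 without naïve CD8+ array 2.

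*Vpreb3*, a protein of the pre-B and B cell endoplasmic reticulum that resembles the surrogate light chain, had the smallest standard error of the genes that rose. It read 5.28 and 4.67 in naïve CD4+, 7.90 and 8.18 in CD4+ TEM, 9.56 and 9.03 in CD4+ memory, 4.88 and 4.89 in naïve CD8+ and 8.11 and 8.16 in CD8+ TEM cells. It rose by 3.07 (SE 0.25, adjusted p = 9.97e-05), 4.32 (SE 0.25, adjusted p = 2.54e-05) and 3.25 (SE 0.25, adjusted p = 4.58e-05). Unlike *Ms4a1* it was equal, within 0.01, on the naïve CD8+ arrays, and its CD8+ rise was 3.26 without array 2.

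In counts, 8 of the 16 probe sets, of 5 of the 9 genes (*Ebf1*, *Cd79b*, *Blnk*, *Vpreb3* and *Spib*), were higher in CD4+ TEM cells and 0 lower, where 11.1% of all probe sets were called higher and 12.4% lower (23.5% in either direction). The same 8 probe sets were higher in CD4+ memory cells (8.78% of all higher, 10.9% lower and 19.7% either way) and in CD8+ TEM cells (15.3% higher, 16.6% lower and 31.9% either way), with 0 lower. By limma at an unadjusted p under 0.05 the counts were 9, 11 and 8 higher and 0 lower. The median change over the 16 probe sets was 1.51, 2.04 and 0.77 in CD4+ TEM, CD4+ memory and CD8+ TEM cells, against -0.04, 0.02 and 0.01 over all probe sets. CD4+ memory cells and CD4+ TEM cells share their naïve control arrays. In bulk RNA, fewer cells with a transcript and less of it per cell cannot be told apart.

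**Figure D3:**
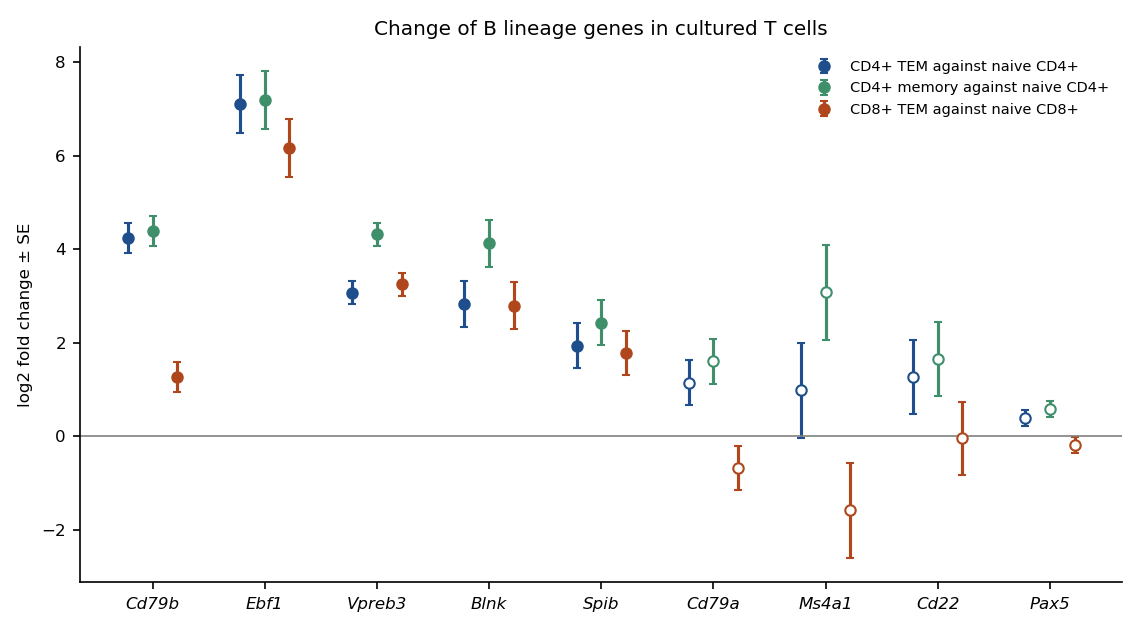
Log2 fold change from naïve cells (vertical axis, bars are the standard error of the fit) of the brightest probe set of each gene (horizontal axis) in CD4+ TEM, CD4+ memory and CD8+ TEM cells, 2 arrays per group. Filled points passed an adjusted p of 0.05, open points did not. Cd79b, Ebf1, Vpreb3, Blnk and Spib are filled in all 3 cultures, and Cd79a, Ms4a1, Cd22 and Pax5 in none.

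Direct comparison of the CD4+ cultures gave 1 call among the 16 probe sets: *Vpreb3* was 1.25 lower in CD4+ TEM than in CD4+ memory cells (log2 change -1.25, SE 0.25, adjusted p = 0.0371), where 1.11% of all probe sets were lower and 2.38% higher (3.49% either way), and 0 members were higher, also at an unadjusted p under 0.05. That call was lost in 9 of 18 alternative settings (adjusted p from 0.0216 to 0.186 over all 18), among them leaving out CD4+ TEM array 1 (0.177) or 2 (0.0986), CD4+ memory array 1 (0.0986), either naïve CD8+ array (0.0602) or either CD8+ TEM array (0.0781). *Blnk* (-1.29, SE 0.50, adjusted p = 0.24) and *Ms4a1* (-2.11, SE 1.02, adjusted p = 0.34) pointed the same way and did not pass in the fit reported. Without either naïve CD8+ array, *Ms4a1* was called in place of *Vpreb3*. Between the CD4+ and CD8+ TEM changes, *Ebf1* differed by 0.95 (SE 0.88, adjusted p = 0.615) at 1416301_a_at (-0.13 without naïve CD8+ array 2) and by -1.70 (SE 0.48, adjusted p = 0.075) at 1439789_at, and *Vpreb3* by -0.18 (SE 0.35, adjusted p = 0.836).

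Values on uncultured naïve CD8+ array 2 ranked the genes differently from culture. Relative to array 1 it was higher by 3.87 for *Ms4a1*, 2.27 for *Cd22* and 2.16 for *Ebf1*, and by 0.01 for *Vpreb3*. *Ms4a1* and *Cd22* thus had their highest values on an uncultured array, whereas on that array *Vpreb3* read 4.89 and *Ebf1* 5.56, below their lowest cultured values of 7.90 and 10.19. On the same array the mature B cell genes *Igk* (10.34 against 6.87 on array 1) and *Cd74* (9.57 against 6.12) and the myeloid gene *Lyz2* (8.70 against 5.20) were higher too. Whether other cells contributed to this array was not tested.

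**Figure D4:**
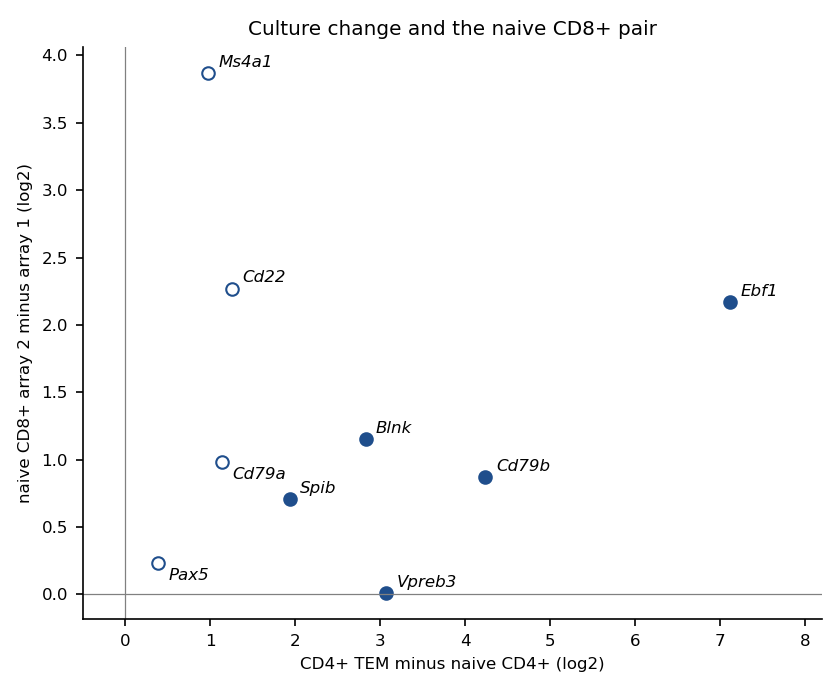
Brightest probe set of the 9 genes, with the log2 change of CD4+ TEM from naïve CD4+ cells on the horizontal axis and the log2 difference of naïve CD8+ array 2 from array 1 on the vertical axis. Filled points passed the test in CD4+ TEM cells. Ms4a1 lies at 0.98 and 3.87, Vpreb3 at 3.07 and 0.01.

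Among other genes of the B cell surface some rose and others fell. Of 24 receptor and surface genes on the array, 8 were higher and 1 lower in CD4+ TEM cells, 9 higher and 1 lower in CD4+ memory cells and 7 higher and 3 lower in CD8+ TEM cells, with median changes of 0.46, 0.50 and 0.29. Over all 18193 genes, each taken like the list genes by its brightest probe set, 15.6% were higher and 9.5% lower in CD4+ TEM cells, 12.5% and 8.98% in CD4+ memory cells and 20% and 16.4% in CD8+ TEM cells, and the counts of the lists that follow are to be read beside these shares. *Fcmr*, a receptor for IgM, rose by 6.09 (SE 0.79, adjusted p = 0.00105), *Cd74*, the invariant chain of MHC class II, by 5.84 (SE 0.89, adjusted p = 0.00234), the kappa light chain probe set *Igk* by 5.69 (SE 1.08, adjusted p = 0.0068) and *Cd83* by 4.66 (SE 0.48, adjusted p = 0.000349) in CD4+ TEM cells. *Ighm*, the heavy chain of IgM, fell by 1.54 (SE 0.30, adjusted p = 0.00782) there, from values of 11.36 and 11.30 in naïve CD4+ cells. In CD8+ TEM cells *Igk* did not pass (2.17, SE 1.08, adjusted p = 0.184), with the naïve pair at 6.87 and 10.34. *Cr2*, *Fcer2a*, *Cd180* and *Siglecg*, surface proteins of mature B cells picked out here after their values were seen, read 2.92 to 4.28 on the 6 cultured arrays. Other genes of mature B cells on this list went the other way. In CD4+ TEM cells *Cd40* rose by 3.37 (SE 0.28, adjusted p = 0.000106) and *Tnfrsf13c* by 3.27 (SE 0.37, adjusted p = 0.000543), both also named after their values were seen.

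**Figure D5:**
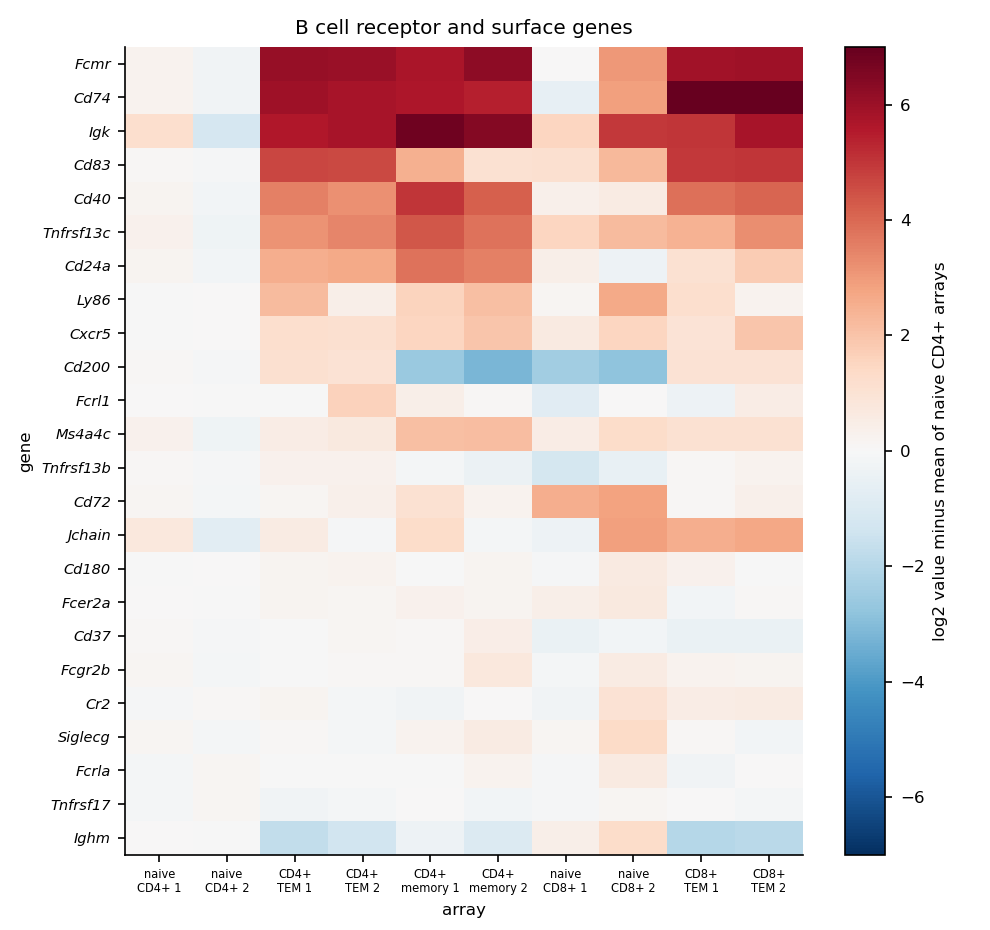
Difference of the log2 RMA value from the mean of the naïve CD4+ arrays (color) for the 24 B cell receptor and surface genes (rows) on the 10 arrays (columns). Fcmr, Cd74 and Igk are high on all 6 cultured arrays, Ighm is low on most of them, and Cd180, Fcer2a and Fcrla stay near 0.

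Of 15 genes that signal below the B cell receptor, 4 rose and 1 fell in CD4+ TEM cells, 6 rose and 4 fell in CD4+ memory cells and 4 rose and 6 fell in CD8+ TEM cells. *Plcg2*, the phospholipase that BLNK recruits in B cells, rose by 5.28 in CD4+ TEM cells (SE 0.21, adjusted p = 3.1e-06), from 4.07 and 4.27 to 9.62 and 9.28, and *Pik3ap1*, a receptor adaptor for PI3 kinase, by 5.02 (SE 0.42, adjusted p = 0.000113). *Prkcb*, a protein kinase C, fell by 1.96. The kinase *Syk*, which acts on BLNK in B cells, read 3.8 to 5.08 on all 10 arrays and the kinase *Btk* 3.46 to 5.20 (both named after their values were seen), below background throughout. *Syk* rose in CD4+ memory cells only (1.06, SE 0.30, adjusted p = 0.0404, against 0.36 and 0.471 in CD4+ TEM cells), and whether those changes differ was not tested.

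Of 15 further transcription factors used in B cells, 4 rose and 4 fell in CD4+ TEM cells, 4 rose and 2 fell in CD4+ memory cells and 4 rose and 6 fell in CD8+ TEM cells. *Irf8* (5.29, SE 0.47, adjusted p = 0.000153), *Mef2c* (3.94, SE 0.66, adjusted p = 0.00378) and *Tcf4* (3.11, SE 0.15, adjusted p = 7.56e-06) rose with *Ebf1*, and all 3 are also used outside the B lineage. *Bcl6*, the germinal center repressor, fell by 2.36 (SE 0.22, adjusted p = 0.000198) and *Bach2*, which restrains effector and plasma cell programs, by 1.40 (SE 0.16, adjusted p = 0.000549). *Spi1*, the ETS factor PU.1, read 4.24 to 5.17 on all arrays (named after its values were seen).

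The pre-B cell list, to which *Vpreb3* is closest, did not rise with it. Of its 11 genes 2 rose in each cultured group, and 5, 3 and 3 fell in CD4+ TEM, CD4+ memory and CD8+ TEM cells. *Sox4*, *Dntt*, *Il7r* and *Lef1*, which fell in CD4+ TEM cells, had means of 10.37, 9.85, 12.93 and 12.97 in naïve CD4+ cells. They were thus far above background before culture, and their falls are no measure of a pre-B program. *Rag1*, *Rag2* and *Igll1* stayed below background on all 10 arrays, at most 3.07, 2.99 and 5.87. Apart from *Sox4*, these genes were named after their values were seen. The risers in CD4+ TEM cells, *Kit* (6.21, SE 0.22, adjusted p = 1.95e-06) and *Cd93* (5.73, SE 0.26, adjusted p = 5.42e-06), also mark stem, mast or endothelial cells. *Vpreb1*, which encodes a part of the surrogate light chain, fell by 1.53 (SE 0.41, adjusted p = 0.0306), from 6.76 and 5.64 to 4.52 and 4.83. It was above background on both arrays of no group, so this fall lies near or within background. *Sox4* fell by 5.69 (SE 0.56, adjusted p = 0.000265). Of 9 germinal center genes 5, 6 and 5 rose and 1 fell in each, the risers in CD4+ TEM cells led by *Basp1* (3.49) and *Mybl1* (3.11). Of 10 plasma cell genes 7, 6 and 8 rose, among them *Mzb1* (4.83, SE 0.33, adjusted p = 4.26e-05) and the effector T cell factors *Irf4* (3.35, SE 0.70, adjusted p = 0.0102) and *Prdm1* (2.72, SE 0.25, adjusted p = 0.000198).

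MHC class II genes, among them *Cd74* of the B cell surface list, moved with the B lineage genes. In CD4+ TEM, CD4+ memory and CD8+ TEM cells 11, 12 and 11 of 17 myeloid and dendritic cell genes were not called. Most of the 24 B cell surface genes were not called either (15, 14 and 14). The mean log2 level of 9 MHC class II genes was 6.23 to 6.41 in naïve CD4+ cells, 10.55 to 10.65 in CD4+ TEM, 10.35 to 10.41 in CD4+ memory, 6.51 and 8.43 in naïve CD8+ and 11.47 to 11.57 in CD8+ TEM cells, and 7, 7 and 8 of the 9 rose in the 3 cultures. The mean of the 24 B cell surface genes was 5.62 to 5.92 in naïve CD4+ cells, 7.26 to 7.28 in CD4+ TEM, 7.22 to 7.40 in CD4+ memory, 5.91 and 7.0 in naïve CD8+ and 7.23 to 7.40 in CD8+ TEM cells. Myeloid and dendritic cell genes moved less, with means of 4.77 to 4.92, 5.27 to 5.37, 5.56 to 5.57, 4.62 and 5.70, and 5.5 to 5.65 in the same order, and 6, 5 and 5 of 17 rose, in CD4+ TEM cells among them the macrophage markers *Adgre1* by 3.30 (SE 0.87, adjusted p = 0.0284) and *Cd68* by 2.72 (SE 0.27, adjusted p = 0.000279). The list's defining members *Lyz2* and *Csf1r* read 4.18 to 4.54 and 3.98 to 4.94 on the 6 cultured arrays, within background. Whether these samples held other cells was not tested. Of 14 T cell genes 6, 5 and 6 fell, *Cd5* by 1.68 and *Cd28* by 1.46 in CD4+ TEM cells, and *Cd8a* rose there by 2.85, to 7.67 and 8.17. In CD8+ TEM cells *Cd4* rose by 2.50 (SE 0.17, adjusted p = 2.82e-05 by limma), to 6.51 and 6.89. Each TEM group thus read above background for a coreceptor gene of the other subset. *Cd8b1*, also a CD8 coreceptor gene, stayed within background in CD4+ TEM cells, at 5.25 and 4.94. Its change there was -0.37 (SE 0.23, adjusted p = 0.326 by limma). No array of the lymphoma cells was used here, so whether the cultured samples held RNA from lymphoma cells was not tested. The sort selected on T cell markers and not against B cell markers as far as the methods used here state.

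For *Ebf1*, *Vpreb3*, *Cd79b* and *Blnk* the 3 genes with the most similar profiles over the 10 arrays were listed. Of these, only *Cd40*, for *Blnk*, is on the B cell lists used here. Genes beyond the 3 closest were not searched for B cell genes. Among 4721 genes whose values ranged over at least 2 log2 units, *Ebf1* was closest to *S100a6* (Pearson r = 0.995), *Melk* (0.993) and *Bub1b* (0.993), *Vpreb3* to *C1qtnf6* (0.996), *D630039A03Rik* (0.993) and *Gpr31b* (0.992), *Cd79b* to *Traf1* (0.985), *Fbxo5* and *Akr1b10* (0.984 each), and *Blnk* to *Cd40* (0.98), *Hopx* and *Slc11a1* (0.977 each). An r above 0.95 was reached by 379 genes for *Ebf1*, 153 for *Vpreb3*, 32 for *Blnk* and 17 for *Cd79b*. The 10 arrays share the division into naïve and cultured cells, so these values describe that division as much as any gene.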

How the data were processed

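Gene expression was measured on 10 Affymetrix arrays of sorted mouse T cells, 2 in each of 5 groups. Normalization by the authors was RMA, run in BRB-ArrayTools (version not given in the sources used here), and the deposited table holds log2 values, from 1.68 to 14.86 with array medians of 4.65 to 4.75. RMA pulls low probe sets together, so small changes near background are understated. Precision is limited by the 2 arrays per group. Of 45101 probe sets, 64 controls were left out; 34945 of the remaining 45037 carry 1 symbol in the platform annotation, 932 several and 9160 none here, and symbols were updated to a GRCm38.p6 gene table.

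Group means of the 10 arrays were estimated together with limma 3.58.1 and statmod 1.5.0 (R 4.3.3), moderated by empirical Bayes, with Benjamini-Hochberg adjustment over 45037 probe sets and 2-sided calls at 0.05. The code was tested on simulated data. The fit pools the spread of the 5 groups. Alternatives were 1 value per gene (brightest or mean probe set), a group mean of at least 6, the methods' variation filter, quantile normalization, an intensity trend, fewer groups, a replicate block and each array left out. Every probe set of the 9 genes is reported. From each other list at most the 4 largest rises and the 2 largest falls in CD4+ TEM cells are named, beside defining markers, and others are said to be chosen later. The genes, lists and tests were chosen with earlier results of these data known. Promoters were searched and figures drawn with Python 3.11.15, numpy 2.4.6, pandas 2.3.3 and matplotlib 3.10.9.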

Additional observations from a re-analysis of the deposited data

Results flagged for a closer look

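*Cd79b* drew attention because its change under culture differed between the subsets by a test of the difference itself: the CD4+ TEM change exceeded the CD8+ TEM change by 2.97 on the log2 scale (SE 0.45, adjusted p = 0.00943 by limma). The CD4+ change was higher in 2 of 2 CD4+ TEM arrays than in either CD8+ TEM array relative to the naïve means, and the difference ranged from 2.54 to 3.40 over the 18 alternative settings (adjusted p from 0.00431 to 0.0456). The subsets started at different levels, 4.05 and 4.64 in naïve CD4+ against 7.88 and 8.75 in naïve CD8+ cells, and ended at 8.41 to 8.77 and 9.58 to 9.60.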

How the results depend on the processing

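Of 46 member values followed through 18 settings, 6 lost and 8 gained a call in at least 1 setting and 6 changed sign, none of them called in the fit reported. Replicate numbers did not pair the arrays (deviations of same-numbered arrays correlated at -0.02 to 0.03 over the 10 pairs of groups), and a replicate block gave 8, 9 and 8 calls in CD4+ TEM, CD4+ memory and CD8+ TEM cells, adding *Cd79a* in the memory cells (adjusted p = 0.0437). With the brightest probe set or the mean per gene, 5 of 9 genes were called in CD4+ TEM and in CD8+ TEM cells, while in CD4+ memory cells 7 (adding *Cd79a* and *Pax5*) and 6 were. By the brightest probe set 4825, 4227 and 6926 of 18193 genes were called in CD4+ TEM, CD4+ memory and CD8+ TEM cells. CD4+ TEM against CD4+ memory went from 1 call to 0 with only the groups compared or with the replicate block (*Vpreb3*, adjusted p = 0.0507), and ranged from 0 to 1 when an array was left out. Without either naïve CD8+ array that call was *Ms4a1* and not *Vpreb3*. The difference of CD4+ and CD8+ changes went from 1 to 2 with a group mean of at least 6 or only the groups compared, and from 1 to 3 when an array was left out. Naïve CD8+ against naïve CD4+ ranged from 1 to 4. With the array median as the upper end of background, 6, 8, 3 and 6 genes were above it in CD4+ TEM, CD4+ memory, naïve CD8+ and CD8+ TEM cells. Sign changes of differences not called in the fit reported were *Ms4a1* in CD8+ TEM cells (-3.53, called, to 0.34 without naïve CD8+ replicate 1 or 2), *Cd22* there (0.02 with quantile normalization, -1.19 to 1.08 without single arrays, 0.2 without CD8+ TEM replicate 1), *Pax5* there (0.04 as the mean of its probe sets), and in the difference of changes *Ebf1* (-0.48 as the mean and -0.13 to 2.04 without single arrays for 1416301_a_at, -0.45 to 0.05 for 1448293_at, above 0 at 0.04 and 0.05) and *Vpreb3* (-0.49 to 0.12). A group left with 1 array is assumed to vary like the others. The cause of these shifts was not tested. Signal near background limits *Pax5*, *Cd22* and *Ms4a1*.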
